A study of Mus musculus with 6 samples.

Results

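The enzymes that make cholesterol and fatty acids, together with the proteins that switch their genes on, were examined in whole testes of mice in which the receptor tyrosine kinase Ret could be inhibited chemically. The group consisted of 29 genes chosen by name: 7 enzymes from acetyl-CoA to farnesyl diphosphate (the mevalonate steps), 11 enzymes from farnesyl diphosphate to cholesterol (the sterol steps), 6 enzymes of fatty acid synthesis and desaturation, and 5 regulators. Of these, 28 were found under their own symbols among the 23361 genes of the deposited table, and all 28 passed the filter on low counts. Msmo1, the sterol C4-methyl oxidase, is listed there under its older symbol, Sc4mol, so its values are given but not counted with the others. All 6 animals were C57BL/6J mice aged about 120 days and homozygous for the V805A substitution in Ret, which makes the kinase sensitive to the compound 1NaPP1-HCl. For 9 days, 3 mice (controls) received daily injections of vehicle, a mixture of saline, cremophor and ethanol, at 10 µl per g of body weight, while 3 were given the same vehicle with the inhibitor dissolved in it. The testes were removed on day 14, after 5 days of recovery. Control mice carried the substitution as well, and no inhibitor-treated mice without it are among the samples, so effects of the compound on Ret and on other targets cannot be told apart.

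Cholesterol is assembled from acetyl-CoA through mevalonate, isoprenoids, squalene and lanosterol, and the testis uses it for membranes of germ cells and as the precursor of androgens in Leydig cells. Spermatocytes and spermatids also hold sterol intermediates of this pathway, among them the meiosis-activating sterols made by Cyp51. The genes of both pathways are targets of the sterol regulatory element binding proteins (SREBPs), transcription factors made as membrane-bound precursors: Scap escorts the precursors from the endoplasmic reticulum to the Golgi for cleavage, and the Insig proteins hold Scap back when sterols are plentiful. SREBP-2, encoded by Srebf2, acts mainly on cholesterol genes, and SREBP-1, encoded by Srebf1, mainly on fatty acid genes.

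Because SREBPs act at promoters together with the factor NF-Y, which binds the sequence CCAAT, 3 promoters are shown to put the genes described below beside the sequence they are transcribed from. The sequences are the 250 bases before the gene's start in RefSeq (build GRCm38.p6), 5′ to 3′ on the gene's strand. Capitals mark matches, on either strand, of TCACNCCAC (a form of the sterol regulatory element), CCAAT or CACGTG (an E-box). Fasn is shown because it was the only member that passed the test between groups. Hmgcs1 is shown because, of the 23 members whose promoters were searched, it alone had a match of the sterol element. Scap is shown because it was among the lowest members in the inhibitor mice. The Fasn window lies at chr11:120824548-120824797 on the reverse strand, that of Hmgcs1 at chr13:119690101-119690350 on the forward strand, and that of Scap at chr9:110333038-110333287 on the forward strand.
Fasn: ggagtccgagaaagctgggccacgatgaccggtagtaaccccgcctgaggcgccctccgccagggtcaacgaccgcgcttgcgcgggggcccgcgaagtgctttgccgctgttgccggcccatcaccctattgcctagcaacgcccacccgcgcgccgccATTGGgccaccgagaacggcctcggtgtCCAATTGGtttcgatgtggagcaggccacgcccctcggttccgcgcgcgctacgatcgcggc
Hmgcs1: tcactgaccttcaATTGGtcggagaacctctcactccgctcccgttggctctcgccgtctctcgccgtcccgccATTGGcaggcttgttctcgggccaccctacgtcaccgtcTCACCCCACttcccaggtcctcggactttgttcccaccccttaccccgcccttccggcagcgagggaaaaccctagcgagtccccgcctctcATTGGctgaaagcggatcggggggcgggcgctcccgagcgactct
Scap: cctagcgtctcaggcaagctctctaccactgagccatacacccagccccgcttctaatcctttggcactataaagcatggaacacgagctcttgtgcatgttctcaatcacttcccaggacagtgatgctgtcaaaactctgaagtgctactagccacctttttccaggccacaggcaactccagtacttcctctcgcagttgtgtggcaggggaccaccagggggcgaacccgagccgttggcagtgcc

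The Fasn window held 3 CCAAT matches, 2 of which overlap in the run CCAATTGG. The Hmgcs1 window held the sterol element from 137 to 129 bases before the start and 3 CCAAT matches, and the Scap window held none of the 3 motifs. Of the 28 members, 23 had a promoter in the RefSeq table, and the first listed one was read for the 6 with several. The windows read for Acaca (chr11:84195188-84195437) and Tm7sf2 lie inside the spans of these genes in GENCODE M21, and some others reach partly into theirs. The shares below are thus not all over sequence before the gene's outermost start. CCAAT was present in 17 of the 23 (73.9%), against 34.46% of 27025 promoters of the same length. The sterol element was present in 1 of 23 (4.3%) against 1.04%, and the E-box in 3 of 23 (13%; Hsd17b7, Insig1 and Sc5d) against 6.05%. These are matches of letters in these windows and not measured binding sites.

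The 6 libraries held 23144295 to 43127892 fragments assigned to genes, so that 1 CPM (fragment counts relative to library size, with library sizes scaled by the trimmed mean of M values, TMM) rested on 23.1 to 43.1 fragments. Inhibitor mouse 3 stood apart from the other inhibitor mice: over all genes, the chi-square value per degree of freedom was 11.54 and 12.46 against mice 1 and 2, compared with 4.76 between those and 4.09 to 5.83 among controls. Ret RNA, from the gene of the targeted kinase, was 2.28, 2.39 and 1.84 CPM in controls 1 to 3 and 0.487, 0.656 and 0.595 CPM in inhibitor mice 1 to 3 (log2 fold change −1.91, SE 0.231, adjusted p = 0.0199, edgeR). These values bear on RNA only and do not check the inhibition, since kinase activity is not among these data. Ret is also among the markers of undifferentiated spermatogonia counted below. Over all 16658 genes tested by edgeR's quasi-likelihood test, 26 were called at a Benjamini-Hochberg adjusted p of 0.05 (0.156%): 16 lower (0.096%) and 10 higher (0.06%) in inhibitor mice. RNA came from whole testes, in which fewer cells of a type and less RNA per cell cannot be told apart. Summed CPM of marker lists moved with treatment for undifferentiated spermatogonia (106.2 to 108.4 in controls, 77.9 to 92.6 in inhibitor mice), spermatocytes (10140 to 10390 against 10720 to 10790), elongating spermatids (21100 to 21880 against 23060 to 24270) and macrophages (359.6 to 371.8 against 402.7 to 442.9). These sums weigh abundant genes most: fold changes were negative in 10 of 10 tested spermatogonial markers and positive in 7 of 10 spermatocyte and 9 of 10 elongating spermatid markers, but positive in only 3 of 8 macrophage markers, with a median of −0.04. The sums of the other 8 lists overlapped between the groups, and the epididymal genes Lcn5 and Spint4 were at 0 in every library. Fold changes were nonetheless positive in 9 of 9 tested adipocyte markers and 8 of 10 round spermatid markers. They were negative in 7 of 7 endothelial, 6 of 7 peritubular myoid, 7 of 9 Leydig cell and 9 of 12 Sertoli cell markers. Of 2 tested markers each, 1 erythroid and 2 epididymal ones were negative. The part of these lists in the results below was not tested.

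Across the module, fatty acid synthase was the only member that passed the test, and it was lower in inhibitor mice. The count was 1 of 28 members lower (3.6%) and 0 higher, beside 0.096% and 0.06% of all tested genes. At an unadjusted threshold of 0.05, 5 members were lower (Fasn, Acaca, Acly, Srebf2 and Scap) and 2 were higher (Idi1 and Me1). Those 7 make up 25.0% of the members, against 17.9% of all tested genes in either direction, 8.48% lower and 9.43% higher. In 7 members control and inhibitor mice did not overlap in CPM (25.0%, against 22.9% of all tested genes): Fasn, Acaca, Srebf2, Scap and Ebp lay lower in all 3 inhibitor mice (11.9% of tested genes did so) and Idi1 and Fdft1 lay higher (11%). In either direction the members' shares were thus near the background. The lower members alone, 5 of 28 in both counts, were above it, a difference with no test of its own. In the count without overlap, Ebp entered only by a difference beyond the printed digits. Fasn, Acaca, Srebf2 and Scap are in the top bins of transcript length or GC content described below, where fold changes of all genes ran lower. The median log2 fold change was −0.07 over the members and −0.004 over all tested genes, with 18 members below 0 and 10 above. It was 0.003 for the mevalonate steps, −0.05 for the sterol steps, −0.16 for fatty acid synthesis and −0.21 for the regulators. The overall median rested on single mice: it was 0.04 without control 2, 0.003 without inhibitor mouse 1 and −0.17 without control 1.

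**Figure D1:**
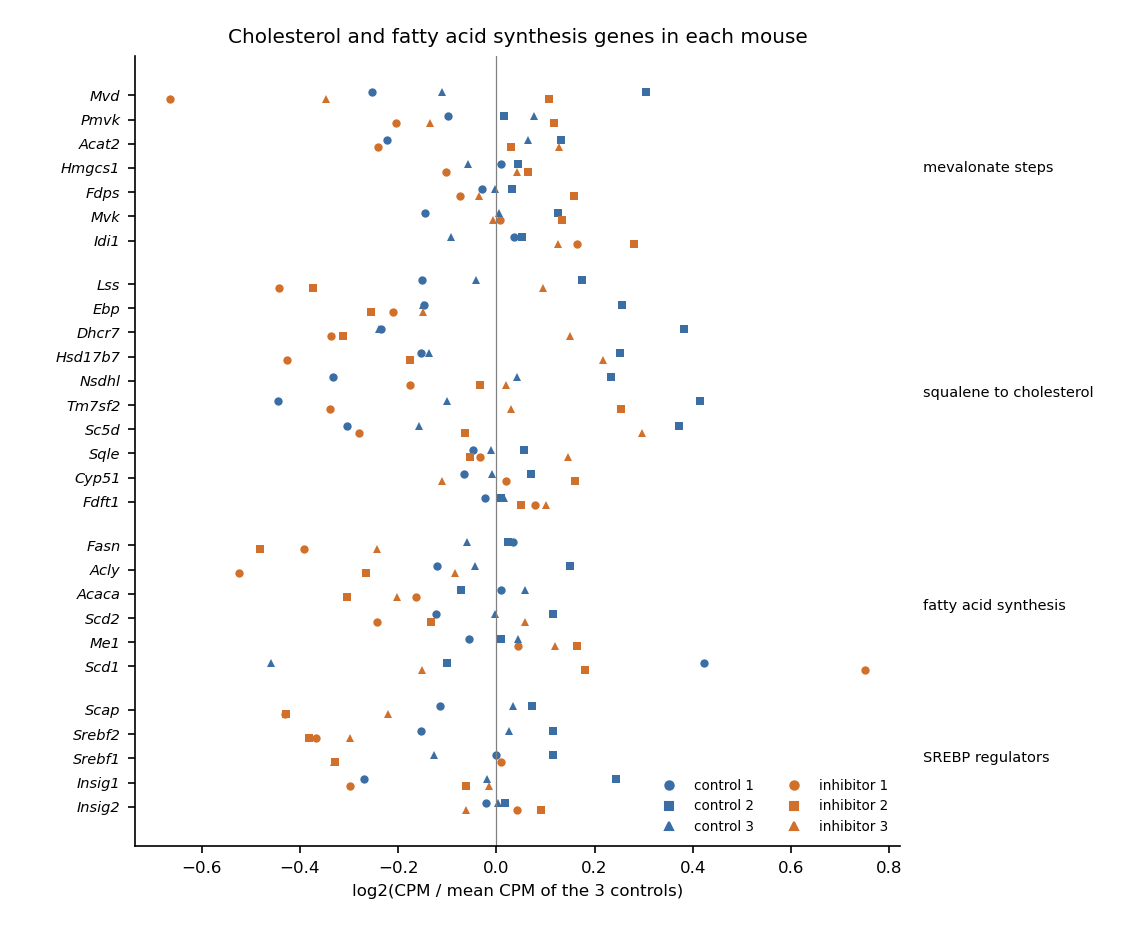
CPM of each member in each mouse relative to the gene's mean over the 3 controls, on a log2 axis, with members in rows by role. Blue points are controls and orange points inhibitor mice, with a circle, square or triangle for mouse 1, 2 or 3. Fasn, Acaca, Srebf2 and Scap are below every control in all 3 inhibitor mice, as is Ebp by a difference beyond the printed digits. Idi1 and Fdft1 are above every control in all 3, and control 2 is the highest control in 22 of 28 members.

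Of the regulators, the genes for SREBP-2 and for its escort were the lowest relative to controls. Srebf2 stood at 31.3, 37.7 and 35.4 CPM in controls 1 to 3 and at 27.0, 26.7 and 28.3 CPM in inhibitor mice 1 to 3. Every inhibitor mouse was below every control. The inhibitor mean was 78.5% of the control mean (34.8 ± 3.25 against 27.4 ± 0.841 CPM, SD, n = 3 per group), with a log2 fold change of −0.35 (SE 0.077, 95% interval −0.52 to −0.19, adjusted p = 0.0826, edgeR), which did not pass. Scap, the escort protein, had 30.6, 34.9 and 33.9 CPM in the controls and 24.6, 24.6 and 28.45 CPM in inhibitor mice. Its groups did not overlap either, and inhibitor mouse 3 was the closest to the controls. The log2 fold change of Scap was −0.36 (SE 0.080, adjusted p = 0.0836, edgeR), at 78.1% of the control mean. In GRCm38, Srebf2 spans chr15:82147181-82205379 and Scap chr9:110333288-110384950, both on the forward strand.

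Srebf2 and Scap each passed in 3 of 19 other treatments of the data and missed the threshold in the other 16. The highest adjusted p was 0.337 for both, in edgeR without control 2. After the correction for length and GC described below, it was 0.223 for Srebf2 and 0.194 for Scap in edgeR. Without inhibitor mouse 3 the adjusted p was 0.0058 for Srebf2 and 0.0016 for Scap in edgeR, and in DESeq2 on all 6 libraries it was 0.0138 and 0.0153. Both DESeq2 and the edgeR fit without that mouse also called more genes in all, as given with the counts of calls.

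Srebf1, which encodes SREBP-1, had 16.8, 18.2 and 15.4 CPM in the controls and 16.9, 13.4 and 13.4 CPM in inhibitor mice. Inhibitor mouse 1 lay within the control range and the other inhibitor mice below it (log2 fold change −0.21, SE 0.107, adjusted p = 0.327, edgeR). Insig1, a brake on Scap, had 17.3, 24.7 and 20.6 CPM in the controls and 17.0, 20.0 and 20.6 CPM in inhibitor mice. The groups overlapped, and the sign of the Insig1 fold change rested on 1 control: it was −0.13 with all mice and 0.02 without control 2. Insig2, the second brake, was the steadiest regulator among the controls, at 60.4, 62.0 and 61.4 CPM, with 63.1, 65.2 and 58.7 CPM in inhibitor mice. The Insig2 difference was 0.02 on the log2 scale with a 95% interval of −0.10 to 0.15, and its sign turned with the scaling of the libraries (−0.007 by library totals alone).

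**Figure D2:**
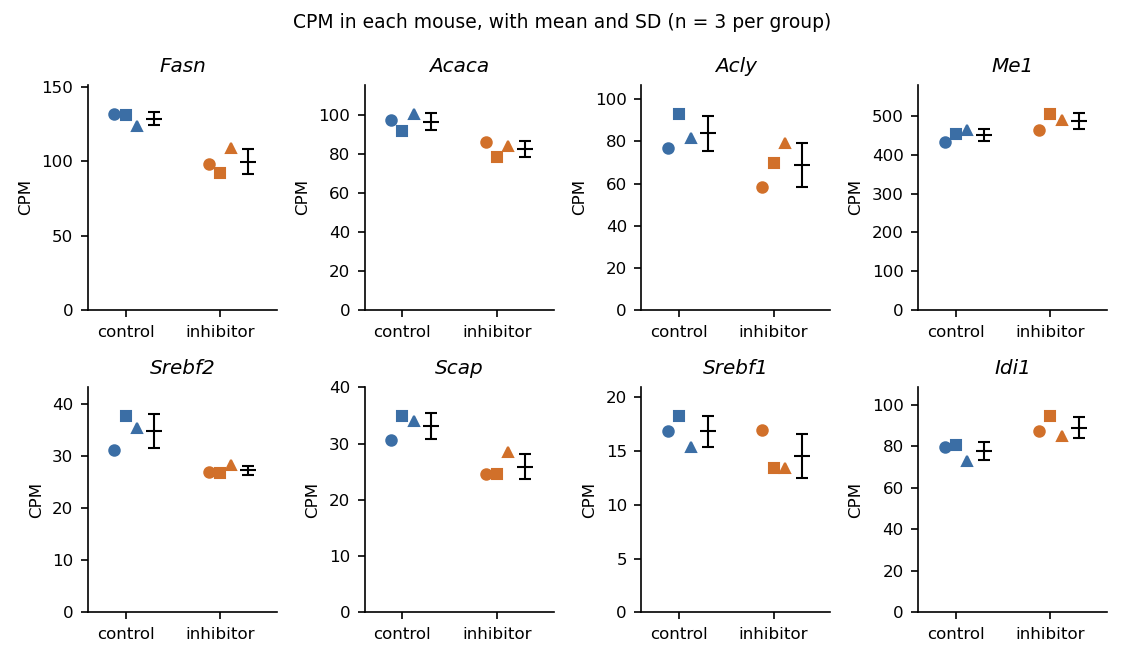
CPM of 8 members in each mouse (circle, square and triangle for mice 1, 2 and 3; blue for controls, orange for inhibitor mice), with the mean and SD of each group beside the points (n = 3). Fasn, Acaca, Srebf2 and Scap do not overlap between the groups and lie lower in inhibitor mice, Idi1 does not overlap and lies higher, and Acly, Me1 and Srebf1 overlap.

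In fatty acid synthesis, Fasn, the multienzyme that builds palmitate, fell in the inhibitor mice. It stood at 131.9, 130.9 and 123.6 CPM in controls 1 to 3 and at 98.1, 92.2 and 108.8 CPM in inhibitor mice 1 to 3. All 3 inhibitor mice were below all controls. The mean was 128.8 ± 4.52 CPM in the controls and 99.7 ± 8.41 CPM in inhibitor mice (SD, n = 3 per group), or 77.4% of the control level. The log2 fold change was −0.37 (SE 0.063, 95% interval −0.51 to −0.23, adjusted p = 0.0498, edgeR), just inside the threshold. Fasn lost its call in 14 of 19 other treatments of the data, with adjusted p between 0.0001 and 0.351, and its log2 fold change stayed between −0.44 and −0.16. It passed at 0.0001 without inhibitor mouse 3 and missed the threshold when any other mouse was left out (adjusted p 0.124 to 0.293, edgeR). In GRCm38 the gene spans chr11:120805846-120824547 (reverse strand).

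Acaca, the acetyl-CoA carboxylase that makes the malonyl-CoA used by Fasn, had 97.1, 91.8 and 100.4 CPM in the controls and 86.1, 78.1 and 83.8 CPM in inhibitor mice. Its groups did not overlap, and the inhibitor mean was 85.7% of the control mean. The log2 fold change was −0.22 (SE 0.058, 95% interval −0.35 to −0.10, adjusted p = 0.104, edgeR). Acly, the citrate lyase that supplies acetyl-CoA in the cytosol, had 77.1, 93.0 and 81.4 CPM in the controls and 58.3, 69.7 and 79.0 CPM in inhibitor mice. Here inhibitor mouse 3 was above control 1, so the groups overlapped (log2 fold change −0.28, SE 0.115, adjusted p = 0.251, edgeR). Without that mouse the adjusted p was 0.017 for Acaca and 0.0497 for Acly.

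Me1, the malic enzyme that makes NADPH for fatty acid synthesis, had the highest level per length of the fatty acid genes and had the opposite sign. It had 433.8, 453.6 and 464.7 CPM in the controls and 464.4, 504.8 and 489.8 CPM in inhibitor mice, with inhibitor mouse 1 a fraction of a unit below control 3 (log2 fold change 0.11, SE 0.047, adjusted p = 0.247, edgeR). The stearoyl-CoA desaturases, which place the double bond in oleate, did not separate the groups. Scd1 had 35.2, 24.5 and 19.1 CPM in the controls and 44.2, 29.8 and 23.65 CPM in the inhibitor mice (log2 fold change 0.32, 95% interval −0.62 to 1.25). Scd1 varied most among mice of 1 group, with a coefficient of variation of 31.2% in controls and 32.4% in inhibitor mice. Scd2 had 231.3, 272.8 and 251.4 CPM in the controls and 212.8, 229.5 and 262.3 CPM in the inhibitor mice (log2 fold change −0.10, 95% interval −0.29 to 0.09).

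Adipocytes, which form the fat pad next to the testis, express Scd1, so their markers are given beside it. The summed CPM of 10 adipocyte markers was 47.5, 16.3 and 17.2 in controls 1 to 3 and 66.0, 42.0 and 17.5 in inhibitor mice 1 to 3. Mouse 1 was the highest of each group in Scd1 and in this sum, while controls 2 and 3 had the opposite order in the 2 measures. By single gene, fold changes were positive in 9 of 9 tested markers, and no marker separated the groups. Mouse 1 was the highest of both groups in 7 of the 10 markers. Cidea was the exception in the other direction, with mouse 1 the lowest of both groups, and Pparg was lowest in control 1. The markers Cfd and Car3 were at 0 in controls 2 and 3 and in inhibitor mouse 3, at 7.33 and 9.77 CPM in control 1, at 9.49 and 10.92 CPM in inhibitor mouse 1 and at 4.77 and 6.34 CPM in inhibitor mouse 2. Fabp4, the adipocyte fatty acid binding protein, had 10.01, 0.228 and 0.204 CPM in the controls and 20.1, 7.87 and 0.455 CPM in inhibitor mice. Adipoq, the adipocyte hormone adiponectin, did not follow that pattern as closely, at 7.97, 5.63 and 7.38 CPM in the controls and 10.39, 8.79 and 6.30 CPM in inhibitor mice. The part of adipocyte RNA in Scd1 was not tested. For Fasn, which adipocytes also express, the libraries with Cfd and Car3 at 0 read 130.9 and 123.6 CPM in controls 2 and 3 and 108.8 CPM in inhibitor mouse 3. The others read 131.9 CPM in control 1 and 98.1 and 92.2 CPM in inhibitor mice 1 and 2. Inhibitor mouse 3 is also the mouse that stood apart from its group, and the part of adipocyte RNA in Fasn was not tested either.

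Several members, Fasn among them, have long or GC-rich transcripts, and fold changes in these libraries moved with both properties. The median log2 fold change of all tested genes was −0.11 for the longest of 10 equal bins of transcript length (6626 nt or more) and 0.14 for the shortest bin. It was −0.085 for the highest of 10 bins of GC content (57.786% or more) and 0.08 for the lowest. The longest transcript of Fasn has 10050 nt and a GC content of 57.9%, in the top bin of both, and that of Acaca has 9513 nt. Srebf2 (57.9%), Srebf1 (58.4%) and Scap (59.1%) are in the top bin of GC content, as is Mvd (59.0%), and Lss (6992 nt) is in the top bin of length. These properties are of the longest annotated transcript, which may not be the one counted. In controls Lss had 17.96 CPM at 6.07 FPKM, against 96.4 CPM at 10.71 FPKM for Acaca. Those values point to counted Lss transcripts shorter than 6992 nt, the length on which its corrected value rests. With the trend on length and GC removed library by library, the log2 fold change was −0.16 for Fasn (adjusted p = 0.233, edgeR), −0.09 for Acaca, −0.21 for Srebf2, −0.23 for Scap, −0.08 for Srebf1, −0.24 for Mvd and −0.13 for Lss. All 7 values moved towards 0 and stayed negative. In that fit 4 members were lower at the unadjusted threshold of 0.05 (Fasn, Srebf2, Scap and Ebp), against 5.41% of all tested genes, and 1 was higher (Fdft1), against 8.29%. The median of the fatty acid genes was then −0.06, that of the regulators −0.15 and that of all members −0.07. What set the trend was not tested.

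**Figure D3:**
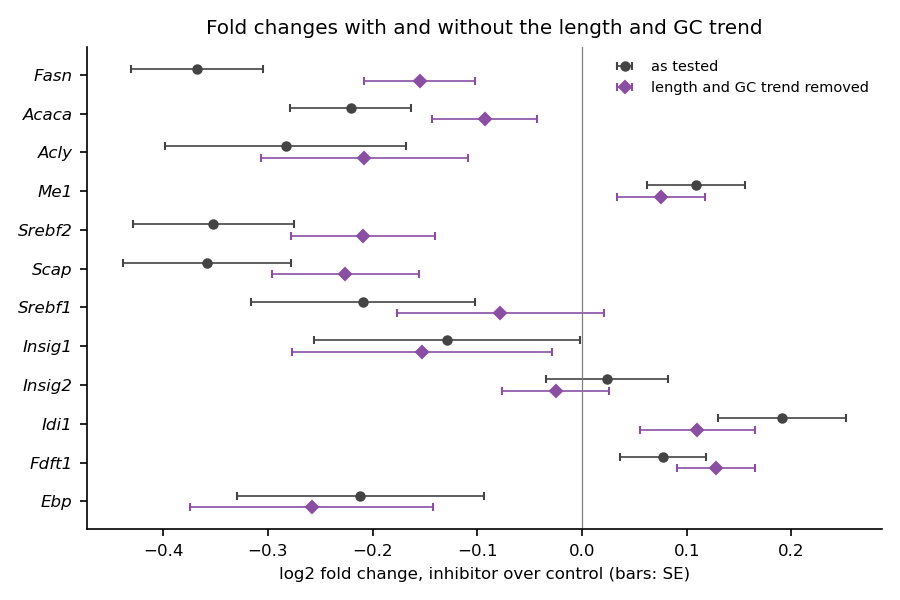
Log2 fold change (inhibitor over control) of 12 members from the edgeR fit as tested (grey circles) and after removal of the trend on length and GC (purple diamonds); bars are standard errors. Fasn moves from −0.37 to −0.16 and Acaca from −0.22 to −0.09, and likewise Srebf2 from −0.35 to −0.21 and Scap from −0.36 to −0.23.

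The 7 mevalonate genes had a median near 0, and none passed the test. Idi1, the isomerase that converts isopentenyl diphosphate to dimethylallyl diphosphate, was the member of this group that stood apart. It had 79.7, 80.5 and 72.9 CPM in the controls and 87.1, 94.4 and 84.8 CPM in inhibitor mice, so that every inhibitor mouse was above every control. The inhibitor mean was 114.2% of the control mean (log2 fold change 0.19, SE 0.061, 95% interval 0.06 to 0.33, adjusted p = 0.143, edgeR). With length and GC removed the Idi1 value was 0.11, and without inhibitor mouse 3 the adjusted p was 0.0208. Hmgcs1, the HMG-CoA synthase and the member with the sterol element printed above, had 97.4, 99.7 and 93.0 CPM in the controls and 90.03, 101.1 and 99.6 CPM in inhibitor mice. Its difference was 0.003 with a 95% interval of −0.13 to 0.13, or 0.917 to 1.09 times the control level. Fdps, which makes farnesyl diphosphate, differed by 0.02 (95% interval −0.12 to 0.16). The kinases Mvk (0.04) and Pmvk (−0.07) and the thiolase Acat2 (−0.03) also overlapped between the groups. Mvd, the decarboxylase, had the largest negative value of these steps, −0.29 on the log2 scale, with an interval of −0.75 to 0.17. Acat2 has a near-identical neighbour, Acat3, in the table, so its counts are uncertain where fragments could be shared.

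The sterol steps gave no call either, and in controls the 3 genes with the highest level per length, Fdft1, Sqle and Cyp51, varied least among mice. Fdft1, squalene synthase and the first enzyme committed to sterols, had 434.4, 444.4 and 446.3 CPM in the controls and 466.4, 457.6 and 473.5 CPM in inhibitor mice. The groups did not overlap, and the difference was small: the inhibitor mean was 105.5% of the control mean (log2 fold change 0.08, SE 0.041, 95% interval −0.01 to 0.17, adjusted p = 0.343, edgeR). Fdft1 shares 774 exonic bases with Ctsb on the opposite strand, and the strand setting of the counting is not given in the sources used here. Sqle, the squalene epoxidase, differed by 0.02 (95% interval −0.11 to 0.16), and Cyp51, the lanosterol demethylase, by 0.03 (95% interval −0.12 to 0.17). Lss, which cyclises squalene epoxide to lanosterol, had 16.2, 20.3 and 17.45 CPM in the controls and 13.2, 13.9 and 19.2 CPM in inhibitor mice. Inhibitor mouse 3 alone lay within the control range of Lss, and without it the log2 fold change was −0.42 (adjusted p = 0.0137, edgeR) in place of −0.22. With length and GC removed it was −0.13.

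Ebp, the sterol isomerase, had 10.93, 14.47 and 10.92 CPM in the controls and 10.46, 10.15 and 10.92 CPM in inhibitor mice. It counts as not overlapping only by a difference beyond the printed digits between control 3 and inhibitor mouse 3 (log2 fold change −0.21, adjusted p = 0.366, edgeR). The remaining sterol genes overlapped between the groups. Their log2 fold changes were −0.02 for Tm7sf2 and −0.07 for Nsdhl, −0.11 for Hsd17b7, −0.008 for Sc5d and −0.16 for Dhcr7, the enzyme of the last step to cholesterol. The intervals of Tm7sf2, Sc5d and Dhcr7 reached at least 0.37 in both directions, and these genes had coefficients of variation of 19.95% to 30.4% within groups. Msmo1, under its older symbol, had 17.1, 28.6 and 21.9 CPM in the controls and 18.5, 21.6 and 21.9 CPM in the inhibitor mice (log2 fold change −0.14, adjusted p = 0.752, edgeR). Tm7sf2 shares 532 exonic bases with Vps51 on the same strand, and Lss 381 with an antisense gene, so their counts may include fragments of those genes. Other members also share exonic bases with neighbours, among them Fdps (1124, same strand), Scap (985, opposite strand) and Hmgcs1 (557, opposite strand). The neighbours of Fdps, Scap and Hmgcs1 are not listed by name in the deposited table.

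Per transcript length, the module spanned a wide range of levels in the control testis. In the deposited FPKM values, Fdft1 was the highest at 162.8 ± 2.10 (SD, n = 3) and Me1 followed at 144.7 ± 4.88. Fdps stood at 77.6, and Scd2 (47.0 ± 3.73) and Sqle (46.1 ± 1.56) were next and did not differ beyond their spread. Hmgcs1 (30.8), Idi1 (28.6), Cyp51 (27.8) and Insig2 (26.4) formed a further group, followed by Acly at 19.5 and Fasn at 12.98. The lowest were Srebf1 at 4.03, Mvd at 2.91 and Hsd17b7 at 1.73 FPKM. Between related genes, Srebf2 was 1.95 ± 0.206 times Srebf1 in controls and 1.79 ± 0.256 times in inhibitor mice. Insig2 was 3.22 ± 0.527 times Insig1 in controls and 3.53 ± 0.474 times in inhibitor mice. Scd2 was 9.08 ± 2.98 times Scd1 in controls and 6.95 ± 2.77 times in inhibitor mice. All 3 ratios overlapped between the groups.

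**Figure D4:**
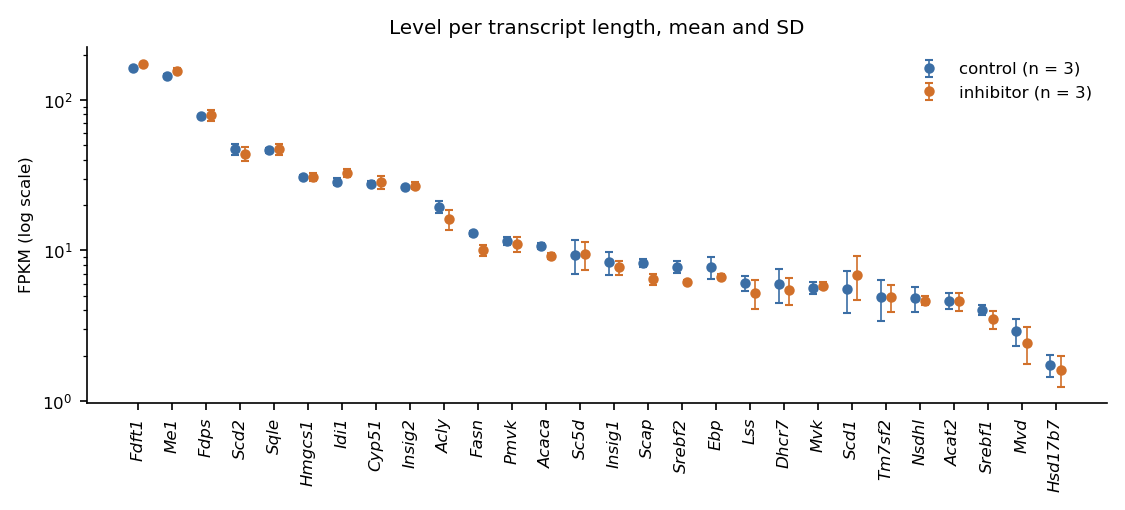
FPKM of every member (log axis) in controls and inhibitor mice, ordered by the control mean, as the mean of each group with its SD (n = 3). The order runs from Fdft1 at 162.8 FPKM to Hsd17b7 at 1.73 FPKM in controls, and the groups' means lie close together at this scale.

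Differences between mice of the same group were shared by many members. Control 2 was the highest control in 22 of 28 members (78.6%), against 35.3% of all tested genes, and control 1 the lowest in 20 of 28 (71.4%), against 32.3%. Among inhibitor mice, mouse 1 was the lowest in 16 members (57.1%, against 30.7%) and mouse 3 the highest in 15 (53.6%, against 38.5%). In the sterol steps, control 2 was the highest control in 9 of 10 genes and inhibitor mouse 3 the highest inhibitor mouse in 8 of 10. In the mevalonate steps, inhibitor mouse 2 was the highest in 6 of 7. The median deviation of the members from their means over all 6 mice was −0.06, 0.19 and −0.01 on the log2 scale in controls 1 to 3 and −0.15, 0.01 and 0.04 in inhibitor mice 1 to 3. The ranges of the 2 groups overlapped. Star, which carries cholesterol into the mitochondria of Leydig cells, had 74.85, 147.6 and 88.3 CPM in the controls and 40.8, 106.5 and 89.9 CPM in inhibitor mice. The summed CPM of 9 Leydig cell markers was 1027, 1292 and 1247 in controls and 966.8, 1169 and 1116 in inhibitor mice. The markers did not share 1 order: control 2 was the highest control in 4 of the 9, and mouse 1 the lowest of both groups in 4 of the 9 (Star, Cyp11a1, Cyp17a1 and Hsd3b6). Hsd3b1 ran the other way, at 88.5, 42.8 and 66.3 CPM in the controls and 81.3, 78.0 and 51.6 CPM in inhibitor mice. The part of Leydig cell RNA in the members was not tested.

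**Figure D5:**
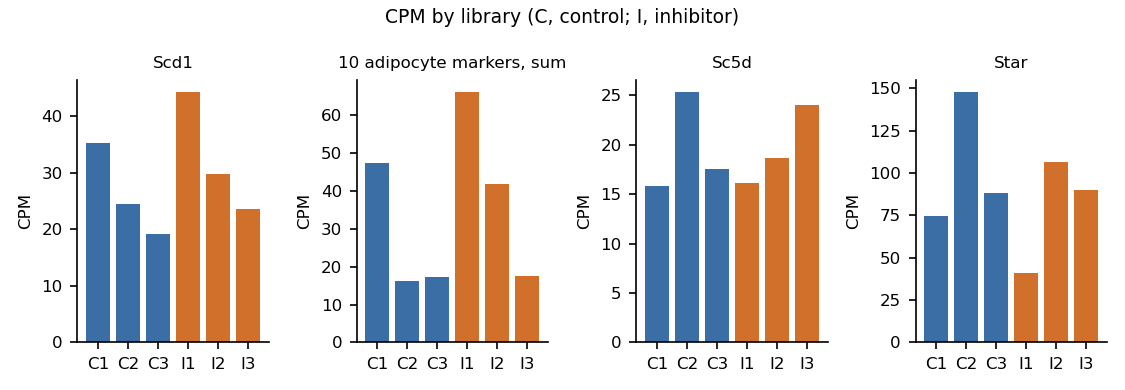
CPM in each library (C1 to C3, controls; I1 to I3, inhibitor mice) of Scd1, of the sum of 10 adipocyte markers, of the sterol desaturase Sc5d and of the Leydig cell gene Star, as bars from 0. Scd1 and the adipocyte sum are highest in mouse 1 of each group, and Sc5d and Star are highest in control 2 (25.3 and 147.6 CPM). Among inhibitor mice, Sc5d is highest in mouse 3 (24.0 CPM) and Star in mouse 2 (106.5 CPM). Star is 1 of 9 Leydig cell markers, of which 4 are highest in control 2 among controls.

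Leaving out inhibitor mouse 3, which stood apart from its group, changed the number of calls in the module and among all genes. Without it, 6 members were called lower (21.4%; Fasn, Srebf2, Scap, Acaca, Acly and Lss) and 1 higher (3.6%; Idi1), beside 5.54% and 8.71% of 16871 tested genes. The median of the members was −0.13 in that fit. With the length and GC trend removed as well, 2 members were lower (7.1%; Fasn and Scap) and 1 higher (3.6%; Fdft1), beside 2.29% and 4.49% of all genes. In DESeq2 on all 6 libraries, 4 members were lower (14.3%; Acaca, Fasn, Scap and Srebf2), beside 1.45% of the 11463 genes with an adjusted p. Fasn and Scap were the members lower in all of these 3 counts. The fits that left out any other single mouse called 0 members, with 5 to 7 members at the unadjusted threshold of 0.05.

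Other genes of the same pathways, in 4 lists, gave no call in edgeR (1 in DESeq2, and 5 in edgeR without inhibitor mouse 3): 64 of 65 listed genes were tested, 5 were lower and 1 was higher at the unadjusted threshold of 0.05, against 8.48% and 9.43% of all tested genes, and the median log2 fold change was −0.04. The 5 calls without inhibitor mouse 3 stand beside 5.54% of all genes lower and 8.71% higher in that fit. Among 7 further genes of sterol synthesis, with a median of −0.07, Ggps1, which makes geranylgeranyl diphosphate, differed by 0.17 and the sterol reductase Lbr by −0.12 on the log2 scale. Ggps1 had 11.29, 10.89 and 10.65 CPM in the controls and 10.88, 13.04 and 13.12 CPM in inhibitor mice, and its groups overlapped.

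Among 8 genes of SREBP cleavage and Insig turnover, the protease Mbtps1, which makes the first cut in the precursors, differed by −0.17, and the ubiquitin ligase Rnf139 by 0.09. The median of that list was 0.02. Among 15 genes of sterol uptake, storage and efflux, the exporter Abcg1 differed by −0.52 at only 1.87 CPM in controls and the lysosomal sterol transporter Npc1 by −0.24 (adjusted p 0.181 and 0.313, edgeR). Abcg1 did not overlap between the groups, and Npc1 did. Among 35 further genes of fatty acid synthesis and use, the elongase Elovl7 had 1.28, 1.02 and 1.97 CPM in the controls and 0.765, 0.612 and 0.805 CPM in the inhibitor mice (log2 fold change −0.94, adjusted p = 0.136, edgeR). The kinase subunit Prkaa1, part of the AMP-activated kinase that phosphorylates acetyl-CoA carboxylase, differed by 0.15, and the malonyl-CoA decarboxylase Mlycd by −0.25.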

How the data were processed

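Testis RNA of 3 control and 3 inhibitor mice was compared, with groups and mouse numbers taken from the sample labels. Libraries were made from polyadenylated RNA with a directional kit, per the labels' protocols. TopHat2 2.0.13, Cuffdiff 2.2.1, cutadapt 1.8 and the build mm10 are named in the submitters' processing notes. Neither the annotation nor the strand setting used in counting is given in the sources used here. The deposited fragment values are expected counts, not scaled by library size, and were rounded to whole numbers. The deposited FPKM values, scaled by the authors' software to transcript length and library size, were used for levels and in 2 alternatives.

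Genes were filtered with filterByExpr, normalised by TMM (trimmed mean of M values) and tested in edgeR 4.0.16 (R 4.3.3) by the robust quasi-likelihood F-test, two-sided, with Benjamini-Hochberg adjustment over all 16658 tested genes at 0.05. Intervals are 95% intervals for the difference between groups, from the fold change and its SE. The SE was derived from the F value of the test, in which the variance between mice is moderated across genes. Alternatives used DESeq2 1.42.0, limma 3.58.1 (voom, and log2(FPKM + 1) or log2(FPKM + 0.1)), other scalings and filters, a replicate block, each mouse left out in turn, and a loess offset (span 0.5) on length and GC of each gene's longest GENCODE M21 transcript, known for 93.35% of tested genes. The fit was checked on simulated data, in which the changes of single genes were larger than those of the members and no library stood apart. The check therefore does not cover differences of the members' size.

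The members and lists were chosen with earlier results of these data known. Values in every mouse were given for the regulators and for members with an unadjusted p under 0.05 or no overlap between groups, and for some others chosen after their values were seen (Scd1, Scd2, Hmgcs1, Lss and Msmo1); up to 3 genes with the smallest p were named per pathway list, and some genes that this rule names are not reported here. Of 172 other listed symbols, 170 matched the table, 2 of them by an older symbol.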

Additional observations from a re-analysis of the deposited data

How the results depend on the processing

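The counts of calls depended on the processing. The main edgeR fit called 10 genes higher and 16 lower, with 1 member lower. DESeq2 gave 367 higher and 166 lower, with 4 members lower and 1 pathway gene outside the members. Without a filter on low counts there were 58 and 57, with 2 members lower. Scaling by library totals alone gave 4 higher, and limma-voom gave 3. At least 50 counts in 3 libraries gave 3 higher and 7 lower. With limma on log2(FPKM + 1) there were 0 higher and 0 lower, and on log2(FPKM + 0.1) 0 and 1. With 0 members lower were RLE size factors, limma-voom, both FPKM fits, at least 50 counts, the 50 most abundant genes removed, and the length and GC trend removed; edgeR had 7 members at an unadjusted p under 0.05, and these fits had 5 to 7.

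Leaving out 1 mouse at a time gave 0 to 1470 genes higher, 0 to 935 lower, 0 to 1 members higher, 0 to 6 members lower and 0 to 5 pathway genes, all the highest without inhibitor mouse 3. Removing the length and GC trend and that mouse, an alternative chosen after seeing the data, gave 758 higher and 386 lower, 1 member higher, 2 lower and 2 pathway genes.

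Replicate numbers did not pair the mice: the correlations of same-numbered deviations were 0.062, −0.116 and −0.02, and not every mouse correlated best with its own number. With the replicate block, 0 genes were higher, 5 lower and 0 members lower; with the block and length and GC removed, 0, 2 and 0.

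Of 12 members followed through all alternatives, signs turned in 3. Insig2 was at −0.007 by library totals, −0.025 with length and GC removed (−0.025 with the block as well), and between −0.009 (without inhibitor mouse 2) and 0.065 (without inhibitor mouse 3) with 1 mouse left out. Insig1 lay between −0.241 (without control 1) and 0.019 (without control 2), and Srebf1 at 0.007 with length and GC removed and inhibitor mouse 3 left out. The cause was not tested. The other 9 (Fasn, Acaca, Acly, Me1, Srebf2, Scap, Idi1, Fdft1 and Ebp) kept their direction in all 19 alternatives. Those 9 were followed for an unadjusted p under 0.05 (edgeR) or no overlap between groups in these same data. The 3 that turned were followed only as regulators. The steadiness of the 9 thus follows in part from how they were chosen. Of the members not followed there, Hmgcs1 turned from 0.003 to −0.047 with length and GC removed and −0.019 without inhibitor mouse 3, and Sqle from 0.022 to −0.045 without that mouse. Genes near 4 CPM, such as Mvd, rested on as few as 84 fragments, which limits their precision.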
